A study of Oryza sativa with 8 samples.

Results

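Rice callus treated with gibberellin (GA) was set against untreated callus on 4 of the 8 arrays of a 2-colour rice oligonucleotide array series. The 4 arrays are those whose titles name 50 µM GA, and they carry the numbers 04, 05, 07 and 08. On the other 4 arrays callus treated with 50 µM abscisic acid (ABA) was set against untreated callus. The callus, an unorganised mass of growing cells, came from the scutellum, the absorbing organ of the cereal embryo, of the japonica variety Nipponbare. It grew for 30 d on Murashige and Skoog medium with 10 µM of 2,4-dichlorophenoxyacetic acid, a synthetic auxin, and per the labels such callus can still form roots and leaves. GA callus then spent 3 d with the hormone at 50 µM, and the untreated callus in the other dye of the same array was its control. All samples share the Nipponbare variety and the auxin of the callus stage. The labels do not name the gibberellin, and they do not say whether arrays held separate cultures or shared 1 untreated sample, so p-values measure only the spread between these arrays, which may be technical.

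Gibberellins are diterpenoid hormones of growth and germination. Their receptor, GID1, binds GA and then marks DELLA repressor proteins for breakdown, which frees growth and hydrolase genes. In the germinating cereal grain the embryo and its scutellum send GA to the aleurone, where alpha-amylases are made, and ABA holds this step back. The pathway is also known for feedback, in which active GA lowers the genes that make it.

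All values below are log2 of GA over untreated, written as the mean ± SD over n = 4 arrays unless another quantity is named, and the SD includes each probe's dye bias. Where 4 values are given, they run in the order of arrays 04 and 05, which had GA callus in Cy3 (green), and 07 and 08, which had it in Cy5 (red). The labels describe the ratio as treated over untreated, but as deposited the arrays of opposite dye orientation correlate below 0. Every deposited value was therefore read as Cy5 over Cy3, and the sign was turned on arrays 04 and 05, so the direction rests on the dyes named in the labels. Were the values Cy3 over Cy5 instead, every sign would turn and the counts would read 4055 probes up and 4660 down. A probe is called at an adjusted p under 0.05 in limma (Benjamini-Hochberg over 17782 probes), and "rose" and "fell" are used only of called probes. A ratio of 2 dyes gives no level, so no gene below is said to be abundant or rare, and the labelled tissue could not be checked against the level of its markers. In bulk callus, fewer cells of a type and less RNA per cell cannot be told apart.

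GA changed a large share of the array, mostly by little. Of 17782 probes, 8715 were called (49.0 percent), 4660 up (26.2 percent) and 4055 down (22.8 percent). Each count of a gene list below is to be read beside these shares of all probes. The median rise was 0.26 and the median fall was −0.24 on the log2 scale, and across all probes the middle of the distribution was narrow, with the 5th percentile at −0.40 and the 95th at 0.51. Probes called and changed at least 1.5-fold numbered 708 up and 444 down. At least 2-fold changes numbered 229 up (1.29 percent) and 133 down (0.748 percent), at least 4-fold changes 22 up and 14 down, and at least 8-fold changes 2 up and 0 down. All 362 probes of the 2-fold class (2.04 percent) had the same sign on all 4 arrays, as did 7583 of the 8715 called and 50.1 percent of all probes. Both classes were picked from these same arrays, so their shared sign is no separate check. Of the 2471 probes of genes with a symbol 1299 were called (52.6 percent). Of the 362, 73 (20.2 percent) belong to a gene with a symbol in the annotation used, so the named genes below describe a minority of the response.

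The dye orientations gave mostly the same large changes and differed in the small ones. Across all probes 65.4 percent had the same sign with GA callus in Cy3 and in Cy5, against 94.6 percent of called probes and all 362 of the 2-fold class. The last 2 shares were largely set by the choice, since both classes were picked from the mean of both orientations. With GA callus in Cy3, 248 probes were at least 2-fold up, of which 247 were also above 0 and 187 at least 2-fold up with GA callus in Cy5. Of 133 probes at least 2-fold down in the Cy3 arrays, 131 were below 0 and 104 at least 2-fold down in the Cy5 arrays. The median gap between an orientation and the mean of both was 0.07, and the dye term of the fit was itself called for 7576 probes (42.6 percent). Across probes, which are not independent replicates, arrays of 1 dye orientation correlated at r = 0.96 (04 with 05) and r = 0.87 (07 with 08), and arrays of opposite orientation at 0.70 to 0.82. A further 469 called probes had opposite signs in the 2 orientations, with a median size of 0.14 and a largest of 0.47, so a call on a small mean can rest on the dye correction.

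**Figure D1:**
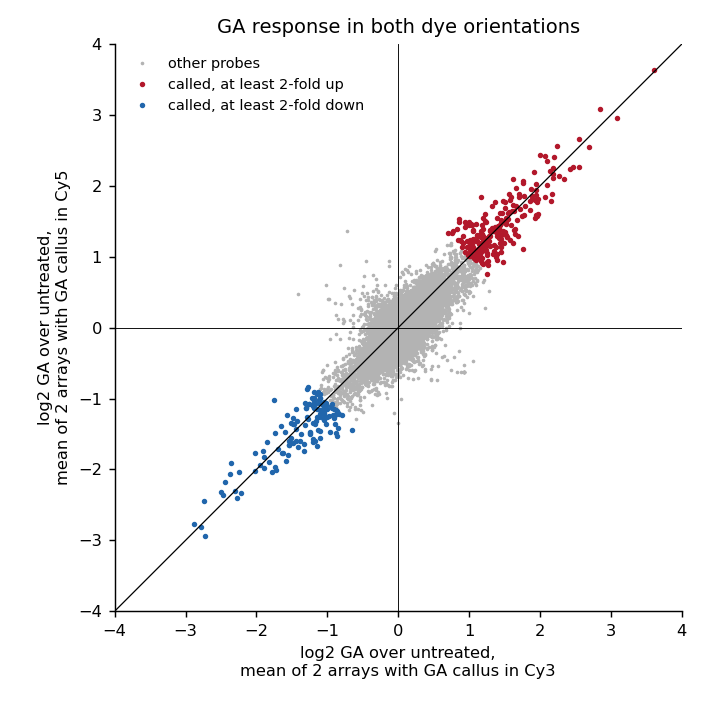
Each point is 1 probe, with log2 GA over untreated averaged over the 2 arrays with GA callus in Cy3 on the x axis and over the 2 arrays with it in Cy5 on the y axis. The 229 red and 133 blue points, picked as called and at least 2-fold on the mean of both axes, lie along the diagonal in 2 quadrants. Grey points near 0 spread to all 4.

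Genes of lignin precursor synthesis held the largest rise of the array. AT4 (PMT), which attaches p-coumarate to lignin building blocks, gave 3.52, 3.70, 3.69 and 3.57, a 12.3-fold rise (adjusted p = 7.13e-10). All 4 arrays lay within 0.2 of each other. AT5, another acyltransferase of the same family, rose by 1.25 ± 0.09, with every array between 1.16 and 1.36. Of the 8 AT probes 2 rose and 1 fell, and AT1, AT7, AT15 and 2 of 3 AT9 probes were not called, with a list median of 0.00.

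The steps before AT4 in the pathway moved in part. PAL, phenylalanine ammonia-lyase, which opens the pathway, gave 1.57, 1.54, 1.59 and 1.67 on 1 probe (adjusted p = 3.67e-09) and 1.34, 1.31, 1.34 and 1.47 on another, so that both probes were high on every array. 4CL-3, a ligase that activates p-coumarate, gave 1.92, 1.92, 1.85 and 1.74 (1.86 ± 0.08). HCT2, a hydroxycinnamoyltransferase, rose by 1.24 ± 0.25, with a mean of 1.04 in the Cy3 arrays and 1.45 in the Cy5 arrays. COA20, which the annotation also names ROMT-15, an O-methyltransferase name, rose by 1.22 ± 0.10. In all, 11 of 30 probes of phenylpropanoid and lignin genes rose and 5 fell (36.7 and 16.7 percent, against 26.2 and 22.8 percent of all probes), with a median of 0.05 against −0.005 over all probes. Members fell too. HCT1 was at −0.38 ± 0.16 and CAD6, of the alcohol dehydrogenases that finish lignin precursors, at −0.35 ± 0.14, while CAD7 rose by 0.49 ± 0.13 and the laccase LAC7, of enzymes that link precursors into lignin, by 0.73 ± 0.20.

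Wall polysaccharide genes rose more often than they fell. Of 64 probes for synthesis of cellulose and hemicellulose 24 rose and 7 fell (37.5 and 10.9 percent), with a median of 0.05. The falls numbered 3 with no dye term, 3 without array 04 and 4 without array 08. CSLH1, a cellulose synthase-like gene of a group that makes mixed-linkage glucan, gave 1.49, 1.49, 1.25 and 1.13 (1.34 ± 0.18, adjusted p = 8.24e-09), higher in the Cy3 arrays. UGD4, which makes the sugar acid precursor of pectin and xylan, gave 1.29, 1.28, 1.33 and 1.26 on 1 probe and had a mean of 1.16 on the other. RGP3 (UAM3), which forms the arabinose precursor of wall polymers, rose by 1.01 ± 0.08 on 1 probe, but its other probe was at 0.03. CSLA1, of the class that makes mannan backbones, rose by 0.81 ± 0.08, CSLC3, of the xyloglucan backbone class, by 0.62 ± 0.09, and the cellulose synthase gene CESA8 by 0.61 ± 0.11. TBL13, of a family of wall acetylation proteins, was the largest fall of the list at −0.93 ± 0.31.

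Wall-loosening genes included the second largest named rise. EXP8, an alpha-expansin, gave 2.51, 2.88, 2.54 and 2.57, a 6.16-fold rise (adjusted p = 5.25e-08). Array 05 stood above the other 3. Of 26 expansin probes 10 rose and 3 fell (38.5 and 11.5 percent, median 0.05): EXP3 (0.86 ± 0.12) and EXP10 (0.70 ± 0.19, with its other probe at 0.03) rose, and EXP5 (−0.35) fell. Among 10 endoglucanase and xyloglucan enzyme probes 4 rose and 2 fell. GLU2 gave 1.11, 1.12, 0.79 and 0.53, and GLU14, another endoglucanase, −0.49, −0.44, −0.70 and −0.67, so these endoglucanases moved apart on every array.

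Beta-glucosidases of glycosyl hydrolase family 1, which release hormones, lignin precursors and defence compounds from glucosides, moved both ways. BGLU26 gave −2.83, −2.72, −2.66 and −2.97, a 6.93-fold fall (adjusted p = 1.50e-09), and BGLU31 fell on both of its probes (−1.08 ± 0.02 and −1.22 ± 0.29). BGLU16 rose by 1.40 ± 0.18 on 1 probe and fell on the other (−0.18), and BGLU12 rose by 0.82 ± 0.22 on 1 probe with the other at −0.17. BGLU13 rose on both probes (0.87 and 0.51). Of 34 probes 8 rose and 11 fell (23.5 and 32.4 percent).

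Casparian strip genes had a strong rise in few members. OsCASPL1U3, named as a CASP-like membrane protein, gave 2.20, 2.10, 2.17 and 2.25 (adjusted p = 1.13e-09), and OsCASP1, which in roots organises the lignin band of the endodermis, gave 1.69, 1.63, 1.83 and 2.11. OsCASPL2A1 fell by 1.09 on 1 probe, with an SD of 0.03, while its other probe was at −0.04. Of the 23 probes of the family 5 rose, 2 fell and 16 were not called, and the median was 0.05, so most of the family gave values near 0.

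Genes of photorespiration and of peroxide handling changed in both directions. GDCSH, the H protein of glycine decarboxylase, gave 2.07, 2.11, 2.00 and 2.01, a 4.14-fold rise (adjusted p = 1.43e-09) with the arrays within about 0.1 of each other. Among glycolate oxidases, which make peroxide as they oxidise glycolate, GLO4 rose (1.49, 1.71, 1.40 and 1.49), GLO3 fell (−0.74 ± 0.16) and GLO1 fell on 1 probe (−1.57, −1.51, −1.58 and −1.74) while its other probe was at 0.00. A gene named only as a peroxidase, on chromosome 7, gave 2.36, 2.31, 2.23 and 1.97, and the peroxidase PRX74 rose by 0.97 ± 0.29. The catalase CAT-A rose on both probes (1.22 ± 0.27 and 0.87 ± 0.08), as did RBOHB, an oxidase that makes superoxide (0.72 ± 0.06). R1C-Prx, a 1-Cys peroxiredoxin of embryos, fell by 1.61, with an SD of 0.16. Over 25 probes of peroxide enzymes 8 rose and 7 fell, with a median of −0.01.

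**Figure D2:**
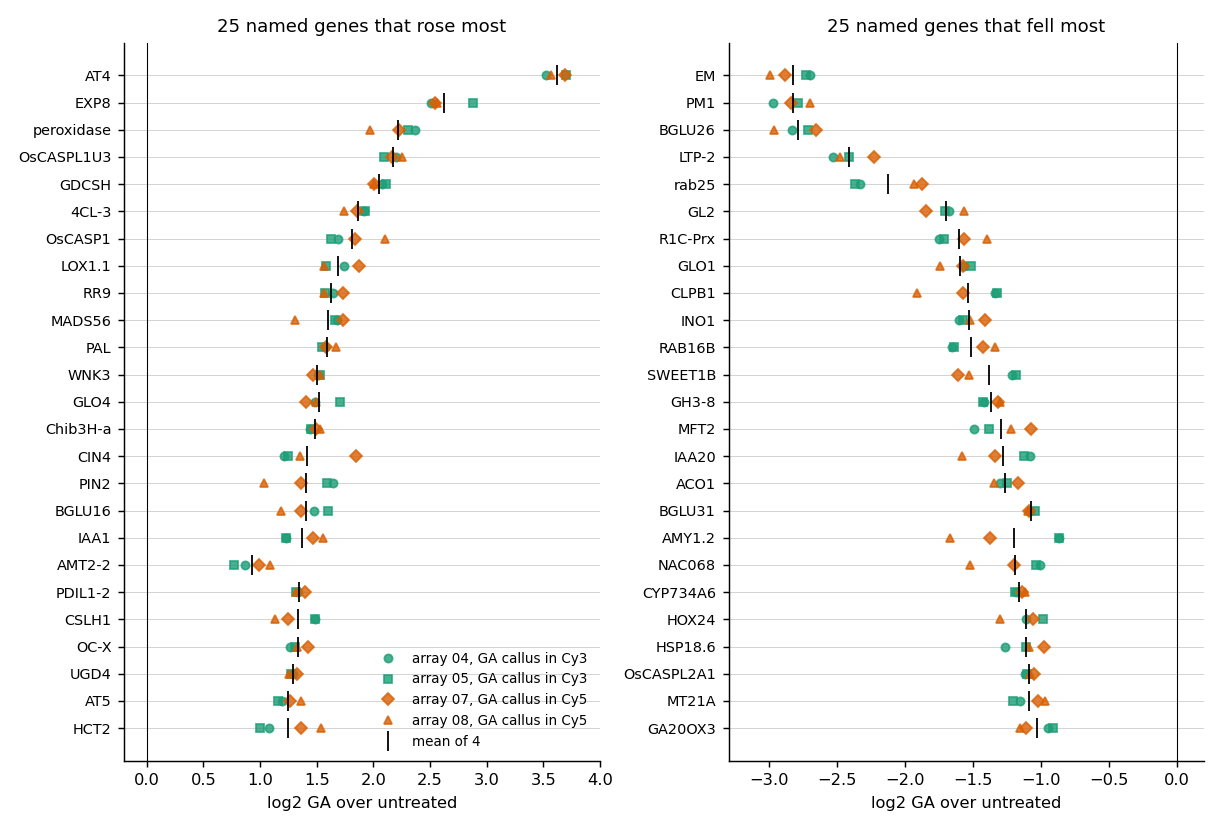
The 25 named genes with the largest rise (left) and the largest fall (right) run down the y axis, with log2 GA over untreated on each array on the x axis, green for the arrays with GA callus in Cy3 and orange for those with it in Cy5, and a bar at the mean of 4. Of a gene with several probes, that with the smallest p is drawn. Every rise has all 4 points above 0 and every fall all 4 below 0, which was a condition of being drawn. AMY1.2 spreads most widely among the falls, with orange points lower than green ones.

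Water channel genes rose more often than they fell. Of 28 aquaporin probes 15 rose and 4 fell (53.6 and 14.3 percent), with a median of 0.16. The plasma membrane genes PIP1-3 (0.72, 0.80, 0.75 and 0.83), PIP2-4 (0.71, 0.65, 0.84 and 0.88) and PIP2-5 (0.67, 0.65, 0.70 and 0.81) rose by similar amounts on every array. PIP1-2 rose on both probes (0.85 ± 0.14 and 0.69 ± 0.22), whereas PIP1-1 rose on 1 probe (0.46) and fell on the other (−0.09). Of the tonoplast genes TIP2-1 rose by 0.88 ± 0.17 and TIP3-2 fell (−0.16 ± 0.14). No aquaporin probe reached 2-fold in either direction.

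Among invertases and sucrose synthases, which split sucrose, rises outnumbered falls. The cell wall invertase CIN4 gave 1.21, 1.25, 1.84 and 1.35, with array 07 highest, and CIN2 (GIF1) gave 1.17, 1.13, 1.08 and 1.15. Sucrose synthase rose too: SUS2 on chromosome 6 was at 0.70 ± 0.08 and 0.78 ± 0.24 on its 2 probes, and SUS1 at 0.66 ± 0.08. A second locus also written SUS2, which was not counted in the list, fell (−0.40). Of 19 probes in this list 9 rose and 3 fell (47.4 and 15.8 percent, against 26.2 and 22.8 percent of all probes). Among 16 probes of trehalose-phosphate phosphatases and hexokinases 9 rose and 4 fell, led by TPP9 (0.94 ± 0.14) and TPP1 (0.74 ± 0.12); the rises numbered 4 with GA arrays alone and no dye term. The SWEET sugar carriers split. SWEET1B gave −1.22, −1.19, −1.61 and −1.53 (adjusted p = 2.72e-09), SWEET15 fell by 0.72, with an SD of 0.27, and SWEET2A rose by 0.54 ± 0.13. SWEET11 rose by 1.18 ± 0.53 (adjusted p = 8.48e-05), but its 4 values were 0.85, 0.88, 1.96 and 1.03, with array 07 far above the other 3.

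In nutrient uptake, 15 of 54 probes for nitrogen, phosphate and metal transporters rose and 6 fell (27.8 and 11.1 percent), the share of rises being near that of all probes. The ammonium transporter AMT2-2 rose on both probes (0.93 ± 0.14 and 1.35 ± 0.13), the phosphate transporter PHT1-8 by 0.78 ± 0.16 (other probe −0.06) and the iron transporter IRT1 by 0.59 ± 0.07. Potassium transporters of the HAK family gave 6 up and 7 down of 25 probes.

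Few genes of the GA pathway itself are named on the array, and those called went both ways. GA20OX3, a GA 20-oxidase that makes the direct precursors of active GA, gave −0.95, −0.91, −1.11 and −1.16 (adjusted p = 1.54e-08), and CYP701A19, an ent-kaurene oxidase name earlier in the pathway, fell by 0.22, with an SD of 0.09. KAO, the ent-kaurenoic acid oxidase, rose (0.13, 0.37, 0.46 and 0.56). The CYP714 genes, whose products inactivate GA, and CPS1, which starts the pathway, were not called and lay between −0.06 and 0.07. In perception and response, gid1, the receptor, gave −0.54, −0.58, −0.67 and −0.96, and CIGR2, a GA-responsive GRAS protein, −1.06, −1.02, −0.86 and −1.02. CIGR1 fell by 0.14, while GAMYB, which drives amylase genes in aleurone, SPY and EL1 were not called. Together these were 1 up and 2 down of 8 synthesis and breakdown probes, and 0 up and 3 down of 6 perception and response probes.

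Alpha-amylases are known as targets of GA in aleurone, but only 4 of their genes are named here, and AMY1.1 is not among them. Whether these 4 respond to GA in aleurone cannot be read from callus. They gave no common direction. AMY1.2 gave −0.87, −0.87, −1.38 and −1.67 (adjusted p = 4.33e-07), lower in the Cy5 arrays. AMY1.3 gave 0.95, 0.90, −0.80 and −0.44 and AMY1.4 gave 0.32, 0.22, −0.59 and −0.83, above 0 with GA callus in Cy3 and below 0 with it in Cy5. Their means were 0.15 and −0.22. AMY1.3 shared its values with other probes: 7 probes, itself and 1 MT2C probe among them, had the same value to within 0.001 on all 4 arrays, and 10 probes, 1 UBQ3 probe included, did so on at least 2 arrays. The cause was not tested. AMY1.5 rose by 0.17 ± 0.19. With no dye term AMY1.3, AMY1.4 and AMY1.5 were not called, and AMY1.3 also lost its call without array 04, 05 or 08.

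Single genes of other hormone pathways changed by more than any GA pathway gene named here. Several of those lists are longer, which by itself gives more room for an extreme value. The pathways cannot be ranked by it. Among 64 probes of auxin genes 21 rose and 24 fell (32.8 and 37.5 percent). PIN2, an auxin efflux carrier, gave 1.64, 1.59, 1.36 and 1.04, and GH3-8, which conjugates auxin to amino acids and so inactivates it, gave −1.42, −1.43, −1.32 and −1.30 (adjusted p = 1.50e-09). DAO, which oxidises auxin, fell by 0.88, with an SD of 0.31. Aux/IAA repressors went both ways: IAA1 on chromosome 3 (IAA13) rose (1.23, 1.23, 1.46 and 1.55), IAA12 rose by 0.74 ± 0.29, and of 2 loci named IAA20 that on chromosome 1 gave −1.08, −1.13, −1.34 and −1.58 and that on chromosome 6 fell by 0.83, with an SD of 0.17. ARGOS, an auxin-linked gene of organ size, rose by 1.11 ± 0.05.

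Cytokinin response regulators had a clear high member. RR9, of the type-A class that restrains cytokinin signalling, gave 1.64, 1.57, 1.74 and 1.56 (3.09-fold, adjusted p = 7.79e-09). RR4 (0.72 ± 0.04) and RR6 (0.64 ± 0.09) rose less, and the regulators ORR1 (−0.36 ± 0.17) and ORR2 (−0.35 ± 0.19, and −0.12 on its other probe) fell. Of the LOG family, which frees active cytokinin, LOGL3 fell by 0.75 and LOG by 0.42 on 1 probe (other probe −0.04), while LOGL10 rose by 0.68 ± 0.18 and LOGL6 by 0.53 ± 0.36. In all 7 of 32 cytokinin probes rose and 11 fell.

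Brassinosteroid and ethylene genes were few. CYP734A6, which inactivates brassinosteroids, gave −1.19, −1.19, −1.14 and −1.12 (adjusted p = 4.43e-09), and CYP724B1 (D11), which makes them, fell on both probes (−1.01 ± 0.29 and −0.12). BZR1, a transcription factor of the pathway, rose (0.92, 0.90, 0.49 and 0.31), as did the receptor gene BRI1 (0.33 ± 0.09). ACO1, which makes ethylene, gave −1.31, −1.25, −1.17 and −1.35, and the ethylene receptor ETR3 rose by 0.81 ± 0.18. Brassinosteroid probes numbered 5 up and 5 down of 12, and ethylene probes 1 up and 2 down of 9.

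Jasmonate genes rose more often than they fell, 15 against 6 of 35 probes (42.9 and 17.1 percent, median 0.08), and the falls numbered 3 without array 04. LOX1.1, a lipoxygenase placed in the list by its name, gave 1.74, 1.58, 1.87 and 1.56 (adjusted p = 5.10e-07). Not every lipoxygenase serves jasmonate synthesis, and whether this one does cannot be read from these values. Of the JAZ repressor genes, which hold jasmonate responses back, these rose: JAZ7 by 0.75 ± 0.23, JAZ3 by 0.74 ± 0.12 (other probe 0.04), JAZ12 by 0.67, JAZ10 by 0.63, JAZ1 by 0.51 and JAZ4 on 3 probes (0.54, 0.49 and 0.41). JAZ8 (−0.21) and JAZ11 (−0.10) fell.

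Genes of seed maturation and desiccation were among the largest falls. EM, a late embryogenesis abundant (LEA) protein, gave −2.70, −2.73, −2.88 and −2.99, a 7.10-fold fall (adjusted p = 7.78e-09), and PM1, whose product is a small membrane protein of the AWPM-19 type, gave −2.97, −2.79, −2.84 and −2.70 (7.09-fold). The dehydrin-like rab25 gave −2.34, −2.37, −1.88 and −1.94, lower in the Cy3 arrays, and RAB16B −1.66, −1.64, −1.43 and −1.34. LEA19 (−0.35 ± 0.10) and Dhn1 (−0.23 ± 0.10) fell by less. RAB16C (−0.01) and RAB16D (−0.05), neighbours of RAB16B in name and family, were not called, so the list of 7 had 5 falls, no rise and a median of −0.35.

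Other named genes that fell, chosen here from several lists and from the largest falls, form no list of their own. MFT2, whose relatives in other plants control germination, gave −1.49, −1.38, −1.07 and −1.22, and INO1, the inositol phosphate synthase that feeds seed phytate, gave −1.61, −1.58, −1.41 and −1.52 (adjusted p = 2.88e-08). VP1, a seed maturation factor, gave −1.02, −1.03, −0.79 and −0.61. LTP-2, a lipid transfer protein, fell by 2.41, with an SD of 0.13, whereas LTP110-A of the same family rose (0.92, 0.97, 1.35 and 1.48). The homeobox gene HOX24 (−1.11, −0.99, −1.06 and −1.30) and the NAC factor NAC068 (−1.01, −1.04, −1.20 and −1.53) fell as well. Seed storage genes did not follow: none of 4 storage probes was called, and the lowest was at −0.08 (2 fell without array 07).

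Markers of embryo and scutellum, endosperm, aleurone, shoot meristem, root and green leaf moved unevenly. Of 7 embryo and scutellum marker probes 6 fell, with a median of −1.52, and these include genes given above. Over all probes 26.2 percent rose and 22.8 percent fell. Of the symbols listed as markers, 7 of 14 were measured for embryo and scutellum and 3 of 6 for aleurone. Of 6 endosperm probes none was called, and the lowest was at −0.15. Shoot meristem markers gave 3 rises and no fall in 4 probes, with HOS9 (OSH71) at 0.74 ± 0.07 and OSH1 at 0.27 ± 0.19. Root markers gave 1 rise (OsCASP1) and 2 falls in 4 probes, WOX5 (QHB), a gene of the root quiescent centre, being at −0.58 ± 0.16 and WOX11, of crown root founding cells, at −0.40 ± 0.12. Green leaf markers gave no rise and 2 falls in 5 probes, and aleurone markers 1 of each in 3. The aleurone rise was AMY1.3, whose sign split by dye orientation and whose values were shared with other probes, as given above. The part that a change in cell makeup had in the results above was not tested.

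**Figure D3:**
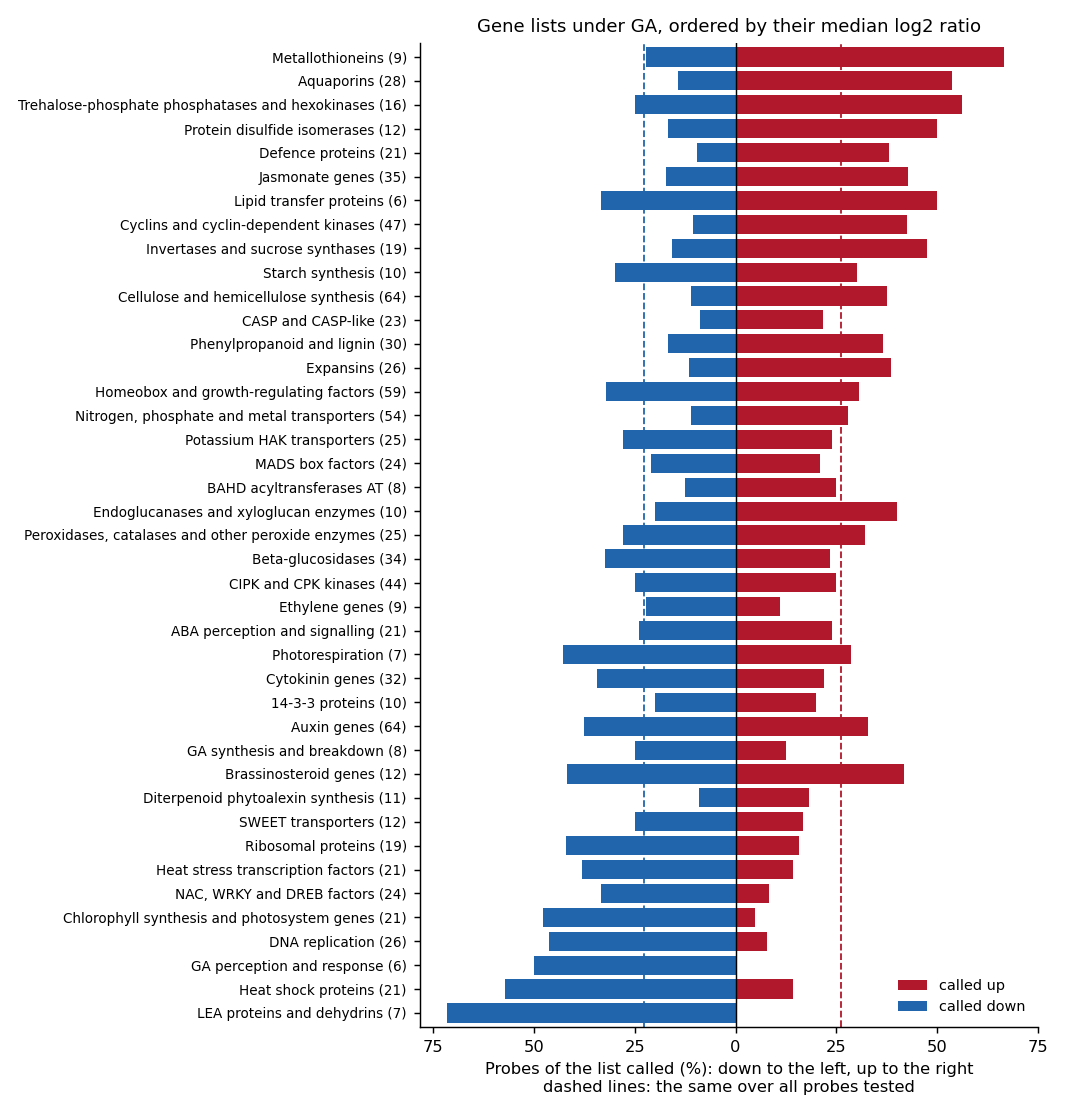
Gene lists with at least 6 probes run down the y axis in the order of their median log2 GA over untreated, with the number of probes in brackets, and the x axis gives the percent of probes called up (red, right) and down (blue, left). Dashed lines mark the same over all 17782 probes, 26.2 percent up and 22.8 percent down. Metallothioneins and aquaporins stand at the top, and LEA proteins, with no rise, at the bottom.

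Of 21 heat shock protein probes 12 fell and 3 rose (57.1 and 14.3 percent), with a median of −0.14. CLPB1, which pulls protein aggregates apart, gave −1.34, −1.33, −1.57 and −1.92, CLPB2, its chloroplast relative by name, −0.75, −0.78, −0.87 and −1.24, and the small heat shock protein HSP18.6 −1.27, −1.12, −0.98 and −1.09. HSP17.9B went the other way on 1 probe (1.16 ± 0.07), with its other probe at −0.06. Of 21 probes for heat stress transcription factors 8 fell and 3 rose: HSF01 fell by 0.57, with an SD of 0.12, and an HSF12 gene on chromosome 7 rose by 0.91 ± 0.11. In the endoplasmic reticulum, BIP4 fell by 0.25. The protein disulfide isomerases, which form protein crosslinks there, gave 6 rises and 2 falls of 12 probes (50.0 and 16.7 percent). Over all probes the shares were 26.2 and 22.8 percent. PDIL1-2 gave 1.34, 1.32, 1.40 and 1.32, and PDIL2-3 fell by 0.43 on 1 probe, with its other probe at −0.03.

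Of 21 chlorophyll and photosystem probes 10 fell, 1 rose and 10 were not called (47.6 percent down and 4.76 percent up), with a median of −0.08, and the rises numbered 4 without array 07. PSBW, of photosystem II, gave −0.79, −0.71, −0.82 and −0.96, and ISP, the Rieske protein of the cytochrome complex, fell by 0.48. Below these, CHLG on both probes (−0.21 and −0.20), PORB (−0.22) and NDH-M (−0.26) fell, and HEMD rose by 0.34.

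Of 47 probes of cyclins, cyclin-dependent kinases and their inhibitors 20 rose and 5 fell (42.6 and 10.6 percent), with a median of 0.07, and the falls numbered 3 without array 04, 05 or 08. KRP6, a kinase inhibitor that restrains division, gave 0.99, 0.97, 0.89 and 0.94 on 1 probe and −0.04 on the other, KRP1 rose by 0.50, and CDKG-1 by 0.77 ± 0.12. CYCD3-2, a D-type cyclin of entry into division, gave −0.50, −0.57, −0.97 and −1.09. Of 26 DNA replication probes 12 fell and 2 rose (46.2 and 7.69 percent), with a median of −0.11. The falls numbered 5 with no dye term, 6 at an adjusted p under 0.01 and 6 without array 04. PCNA, the sliding clamp of DNA polymerase, gave −0.45, −0.44, −0.60 and −0.68, RPA1C, which coats single-stranded DNA, fell by 0.46 and RFC4, of the clamp loader, by 0.38, while MCM3, MCM5, OsMCM6 and MCM7 of the helicase were not called (−0.12 to 0.04). Ribosomal protein probes gave 8 falls and 3 rises of 19, with rpl5 on chromosome 3 at −0.62 ± 0.24 and the gene written RPL5 at 0.20.

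**Figure D4:**
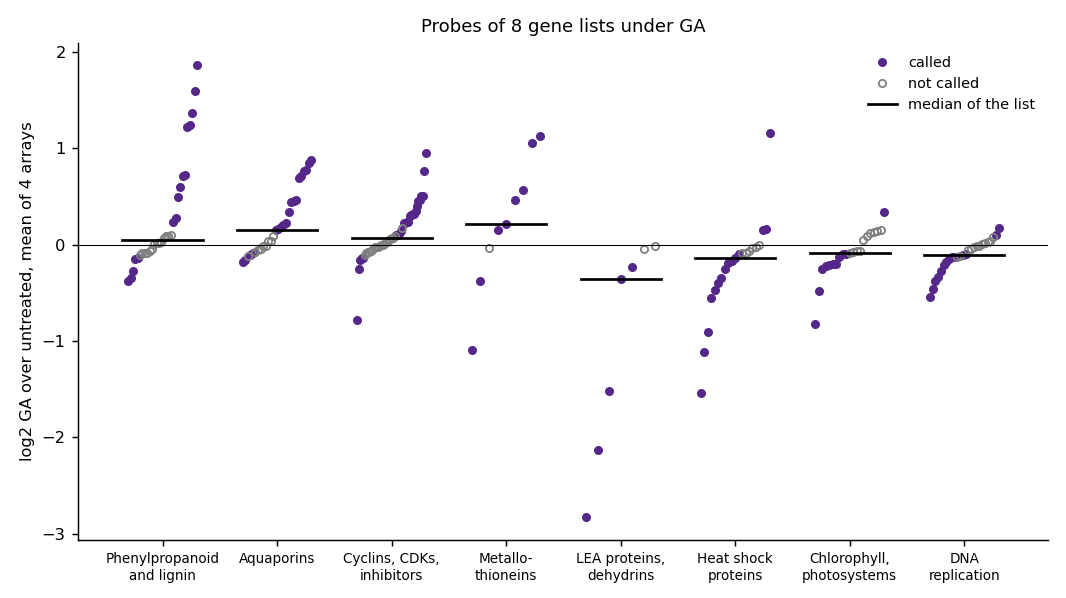
Each point is 1 probe of 8 gene lists, sorted within its list along the x axis, with log2 GA over untreated (mean of 4 arrays) on the y axis. Filled points were called, open points were not, and black lines are list medians. The LEA median lies lowest (−0.35), and the phenylpropanoid list has its open points near 0 and 5 filled points above 1.

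Metallothioneins, small proteins that bind metals, held members at both ends. MT4A gave 1.21, 1.17, 1.13 and 1.02, MT1A rose by 1.05 ± 0.05, and MT1B rose by 0.57 ± 0.04. MT21A, a type II member by its synonym, gave −1.16, −1.21, −1.02 and −0.98. MT2B rose on 1 probe (0.46 ± 0.01), its other probe being at −0.03, and MT2C fell on 1 probe (−0.38 ± 0.32) with the other at the shared values given for AMY1.3. Of 9 probes 6 rose and 2 fell (66.7 and 22.2 percent, against 26.2 and 22.8 percent of all probes), with a median of 0.22. The 6 rises include the MT2C probe with shared values, whose sign split by dye orientation.

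Among transcription factors and signalling genes, a few stood out. MADS56, a flowering-time MADS box gene, gave 1.68, 1.66, 1.73 and 1.31, and MADS55 gave 1.06, 1.04, 1.13 and 1.08, whereas MADS1, of flower organ identity, fell by 0.78, with an SD of 0.08. Of 24 MADS probes 5 rose, 5 fell and 14 were not called. GL2 (GRF4), a growth-regulating factor, gave −1.68, −1.71, −1.85 and −1.57 (adjusted p = 1.19e-08). HOS66, a homeobox gene, rose (0.68, 0.73, 1.32 and 1.36), more in the Cy5 arrays, and in its list of 59 probes 18 rose and 19 fell. DREB1B, a cold response factor, rose by 1.09 ± 0.31, with array 08 lowest at 0.62, in a list of NAC, WRKY and DREB factors where 2 of 24 probes rose and 8 fell, the falls numbering 5 without array 04 and 4 with no dye term. The kinase gene WNK3 rose on both probes, at 1.51, 1.53, 1.46 and 1.53 on 1 and with a mean of 1.53 on the other, where array 07 was highest at 2.10. SAPK9, a kinase of ABA signalling, rose by 0.96 ± 0.11, and SAPK4 of the same family fell on both probes (−0.59 ± 0.43 and −0.50), within an ABA signalling list of 5 rises and 5 falls in 21 probes.

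Defence genes gave 8 rises and 2 falls of 21 probes (38.1 and 9.52 percent). Chib3H-a (RIXI), a chitinase-like xylanase inhibitor, rose by 1.48 ± 0.04, and the chitinase Cht10 rose by 0.66 ± 0.06. Of other named genes in the 2-fold class, the germin-like GER3 rose by 1.16, ERG3 by 1.19, OC-X by 1.33, the blue light receptor gene PHOT1A by 1.12, GATA15 by 1.11 and the phospholipase gene PLA2-III by 1.09. The CIPK and CPK calcium-linked kinases gave 11 rises and 11 falls of 44 probes, the falls numbering 5 with no dye term and 17 with array weights. Probes called up and down numbered 2 and 2 of 10 for 14-3-3 proteins, 3 and 3 of 10 for starch synthesis, and 2 and 1 of 11 for diterpenoid phytoalexin synthesis.

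Most of the strongest response has no gene symbol. After AT4, the largest rises of all were at LOC4324194 on chromosome 1 (3.02, with 3.17 on array 04 and 2.82 on array 07) and LOC4329582 on chromosome 2 (2.96, with 2.14 and 0.04 on its other probes). The largest falls without a symbol were at LOC4339655 on chromosome 5 (−2.60) and LOC9267086 on chromosome 4 (−2.40). Probes of the 2-fold class made up 1.23 percent of the probes of chromosome 12 and 2.94 percent of those of chromosome 4, the extremes of the 12 chromosomes. Of 8981 pairs of measured genes that are adjacent in the annotation, 377 had 1 member in the 2-fold class, 4 had both members changed the same way (LOC4349929 with LOC4349930 on chromosome 11 at 1.72 and 1.77 among them) and 0 had both changed in opposite ways.

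Between probes of 1 gene the median range was 0.13 on the log2 scale. Of 1908 genes with at least 2 probes, 402 were called in 1 direction on at least 2 probes and 62 were called in both directions. Of 42 such genes with a probe in the 2-fold class, 8 had every other probe 2-fold the same way. Another probe was under 0.5 in that direction for 25 and called the opposite way for 3. These 42 were picked by a large value on 1 probe, so smaller values on the others are in part set by the choice. The files used here do not place probes on transcripts, so which probe reports the gene could not be settled.

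GA differed from ABA, each over untreated callus, at 8889 of 17782 probes by the limma contrast (50.0 percent), of which 4847 were higher and 4042 lower under GA. Whether the hormones shared their untreated samples is not stated, and hormone and array number cannot be told apart. PM1 was at −2.83 ± 0.11 under GA and 3.73 ± 0.09 under ABA (GA minus ABA −6.56, adjusted p = 9.59e-12), and LTP-2 at −2.41 ± 0.13 under GA and 2.73 ± 0.07 under ABA. On the other side the peroxidase on chromosome 7 was at 2.22 ± 0.17 under GA and −2.05 ± 0.16 under ABA (GA minus ABA 4.26, adjusted p = 6.99e-10). AT4 was at 3.62 ± 0.09 under GA and −0.36 ± 0.19 under ABA, and OsCASPL1U3 at 2.18 ± 0.06 under GA and −0.89 ± 0.09 under ABA. Of other genes given above, HOX24 was at −1.12 under GA and 1.53 under ABA, and CSLA1 at 0.81 under GA and −1.10 under ABA. IAA13 was at 1.37 under GA and −0.93 under ABA.

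By list, GA was higher than ABA at 21 and lower at 4 of 47 cyclin and kinase probes, at 26 and 7 of 64 wall polysaccharide probes, at 15 and 5 of 30 phenylpropanoid probes and at 16 and 4 of 35 jasmonate probes, against 27.3 percent higher and 22.7 percent lower over all probes. It was higher at 1 and lower at 10 of 21 chlorophyll and photosystem probes, at 3 and 13 of 21 heat shock protein probes and at 1 and 6 of 7 LEA and dehydrin probes. DNA replication, with 3 higher and 5 lower of 26 probes, showed few differences between the hormones, with a median of −0.11 under GA and −0.08 under ABA.

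**Figure D5:**
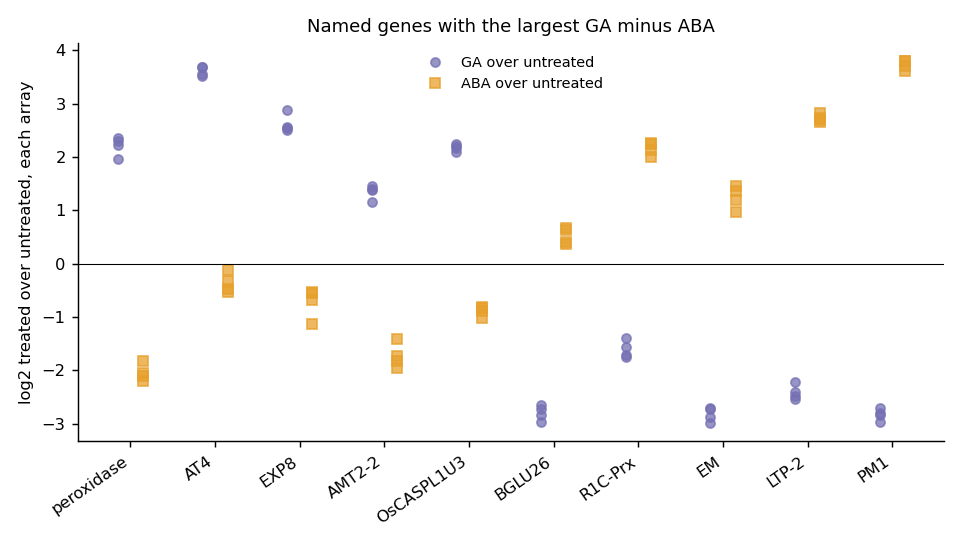
The 10 named genes with the largest GA minus ABA run along the x axis, with log2 treated over untreated on each array on the y axis, GA as purple circles at the left of each pair and ABA as orange squares at the right. The arrays of the 2 hormones do not overlap for any of the 10 genes, which were picked for that.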

How the data were processed

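RNA from GA-treated and untreated callus was hybridised in 2 dyes on each of 4 arrays, and 4 ABA arrays of the same kind share the fit. The authors deposited LOWESS-normalized log ratios per the labels; no label gives the base, which was read as log10. Values were multiplied by 3.32 to give log2, the sign was turned on arrays with treated callus in Cy3, and exact zeros (1 to 6 per GA array on listed probes) were set to missing. Spot intensities, backgrounds and settings behind the deposited log10 values were not used here, and the small number of arrays limits the precision.

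Of 22575 features, 17788 are listed with a gene; 17782 had at least 3 values per hormone. Symbols came from the RefSeq annotation ASM3414082v1 (2471 probes, 2129 genes), used for names and neighbours only. Limma 3.58.1 in R 4.3.3 fitted a mean for GA, a mean for ABA and a shared dye term (5 residual and 3.93 prior degrees of freedom). On simulated data with few changed probes the fit recovered 67.5 percent of changes of 0.25 log2 and 99 percent of changes of 1 log2. False calls made up 2.44 to 6.6 percent of calls. Far more probes were called in the real data, so the simulation does not measure their false calls. The members and lists were chosen with earlier results of these data known. The lists were reworked after their members' values had been seen: clashing names were removed, lists split and some added (MADS, isomerases, HAK, CIPK and CPK among them). No list was tested as a set, and the lists support nothing beyond their counts. Named genes were the 25 largest rises and falls with 1 sign on all arrays, the 5 largest GA minus ABA differences each way, 4 members per list with the smallest p, and the 10 widest splits between dyes; others named were chosen after their values were seen. Promoter motifs and product descriptions, which the plan included, were not used here. Alternatives were fits without or with separate dye terms, GA arrays alone, other centring and scaling, robust moderation, array weights, other handling of zeros, missing values, features and repeat probes, a threshold of 0.01, and each array left out.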

Additional observations from a re-analysis of the deposited data

Results flagged for a closer look

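The GA minus ABA difference was tested in the limma contrast, and a call there was a condition for picking the 10 named genes given here. Among the rises, the gap was widest at the chromosome 7 peroxidase (4.26), then AT4 (3.98), EXP8 (3.35), the higher AMT2-2 probe (3.08) and OsCASPL1U3 (3.06), on the log2 scale. Among the falls BGLU26 differed by −3.31, R1C-Prx by −3.77, EM by −4.07, LTP-2 by −5.14 and PM1 by −6.56.

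Of 188 named probes, 9 had 1 GA array far from the other 3 by Dixon's criterion, and chance flags about 1 in 20 groups. Array 08 stood apart for MADS56 (1.31, others 1.66 to 1.73), SS1 (−0.72, others −0.46 to −0.41), LTPL1 (−0.039, others 0.44 to 0.51), RA14 (−0.35, others 0.08 to 0.14), GF14B (−0.10, others −0.34 to −0.31) and DREB1B (0.62, others 1.22 to 1.25). EXP8 stood apart on array 05 (2.88, others 2.51 to 2.57), SWEET11 on array 07 (1.96, others 0.85 to 1.03) and NDH-M on array 04 (−0.32, others −0.24 to −0.23).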

How the results depend on the processing

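Under 22 alternatives the count of GA calls ranged from 6022 (GA arrays alone, no dye term) to 11152 (array weights), and the count at 2-fold or more from 309 (quantile normalization) to 400 (all features). The 362 probes of that class were called again, with their sign, in every alternative run on probes; gene means called 324 genes at 2-fold. Falls numbered 2630, against 4055, with GA arrays alone and no dye term. Of 4136 reruns for named probes 4013 kept direction and side of the threshold, 93 lost the call, 29 gained it and 1 turned: MT2C, by gene means, at −0.11. Leaving out each array in turn gave 7241 to 9663 calls (3952 to 4857 up, 3289 to 4806 down), 362 to 374 at 2-fold, 7558 to 9916 for GA against ABA and 454 to 565 list members called. Of 1892 reruns of list counts 169 moved by over 1.5 times. GA and untreated callus were paired within each array, which holds both samples. For GA against ABA no paired analysis was possible because the array numbers of the hormones do not overlap. The direction, the log base and any shared untreated sample limit all folds and signs.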
